A study of Mus musculus with 9 samples.

Results

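Glucuronosyltransferase (Ugt) and sulfotransferase (Sult) genes, together with Ugdh, were followed in RNA of mouse liver. The members were all genes whose symbol begins with Ugt or Sult and a digit, without pseudogenes, plus Ugdh, which gave 36 of the 27945 genes with an FPKM value: 20 Ugt genes, 15 Sult genes and Ugdh. The series concerns liver damage by gefitinib, an inhibitor of the epidermal growth factor receptor kinase, and holds polyadenylated RNA of 3 control, 3 model and 3 treated libraries. 3 comparisons follow from this: model with control, treated with model and treated with control. By the series title the model group stands for gefitinib injury, but the labels give no agent, dose, time, age, sex, strain or genotype for any group and name no compound for the treated group. Titles mention liver cells, while the source field reads liver. Nothing states that the 3 libraries of a group are 3 animals, so the spread behind each p-value is the spread of these libraries and may be technical.

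Glucuronosyltransferases of the endoplasmic reticulum join glucuronic acid, taken from the co-substrate UDP-glucuronic acid, to bilirubin, steroids, bile acids and drugs, which makes them soluble enough to leave in bile or urine. Ugdh, UDP-glucose dehydrogenase, makes that co-substrate in the cytosol. Cytosolic sulfotransferases join sulfate from the activated sulfate donor PAPS to phenols, steroids and bile acids. Both families are most active in hepatocytes, and in the Ugt1 locus a set of alternative first exons is spliced to 1 shared series of last exons.

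Library totals ran from 56440871 to 60665156 estimated counts, with 20579 to 21441 genes detected. The 10 hepatocyte markers were present in each library and summed to between 75370.5 CPM (counts scaled to a common library size, with TMM factors) in treated replicate 1 and 109193 CPM in control replicate 2. In treated against control livers 3 of these 10 were called lower, where 8.47% of all genes tested were called lower. Transcripts of 7 skeletal muscle markers summed to 147 CPM in model replicate 1 and 96.9 to 131 CPM in the treated libraries, against at most 1.06 CPM in the other 5 libraries. The 6 macrophage markers summed to 145 to 227 CPM in control, 216 to 264 in model and 649.6 to 678 in treated libraries, and the 7 endothelial markers to 221 to 264, 84.7 to 102 and 48.9 to 67.7 CPM. All libraries carried the Y-linked transcripts Ddx3y, Eif2s3y, Kdm5d and Uty, and Xist stayed at or below 1.74 CPM. The part of these shifts in the results below was not tested, and in bulk RNA fewer cells of a type and less RNA per cell cannot be told apart.

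Of the 36 members, 27 passed the filter on low counts, which asks for counts in several libraries, and 9 did not (Ugt1a2, Ugt1a8, Sult2a1, Sult2a2, Sult2a5, Sult3a1, Sult4a1, Sult6b1 and Sult6b2). Calls are those of edgeR's quasi-likelihood test at a Benjamini-Hochberg adjusted p under 0.05 over 18113 genes. In model against control livers 1 member was called, Ugdh, which was higher, where 1.12% of all genes tested were called (0.519% higher and 0.596% lower). By unadjusted p 2 of the 27 members tested were under 0.05 in that comparison, as were 2526 of the 18113 genes tested. In treated against model livers 6 of the 27 were called, 2 higher (Ugdh and Ugt1a7c) and 4 lower (Sult1b1, Ugt1a1, Ugt2a3 and Ugt3a1), where 9.65% of all genes were called (5.21% higher and 4.44% lower). In treated against control livers 9 of the 27 were called, 3 higher (Ugdh, Ugt1a7c and Ugt2b35) and 6 lower (Sult1b1, Sult2a8, Ugt2a3, Ugt2b1, Ugt3a1 and Ugt3a2), where 17.8% of all genes were called (9.36% higher and 8.47% lower). The median log2 fold change of the tested members was -0.13, -0.25 and -0.29 in these 3 comparisons, beside -0.00, 0.01 and -0.01 over all genes tested. The comparisons share their libraries in pairs, so their counts are not independent of each other. Sult1e1 passed the filter on low counts only through the treated libraries.

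**Figure D1:**
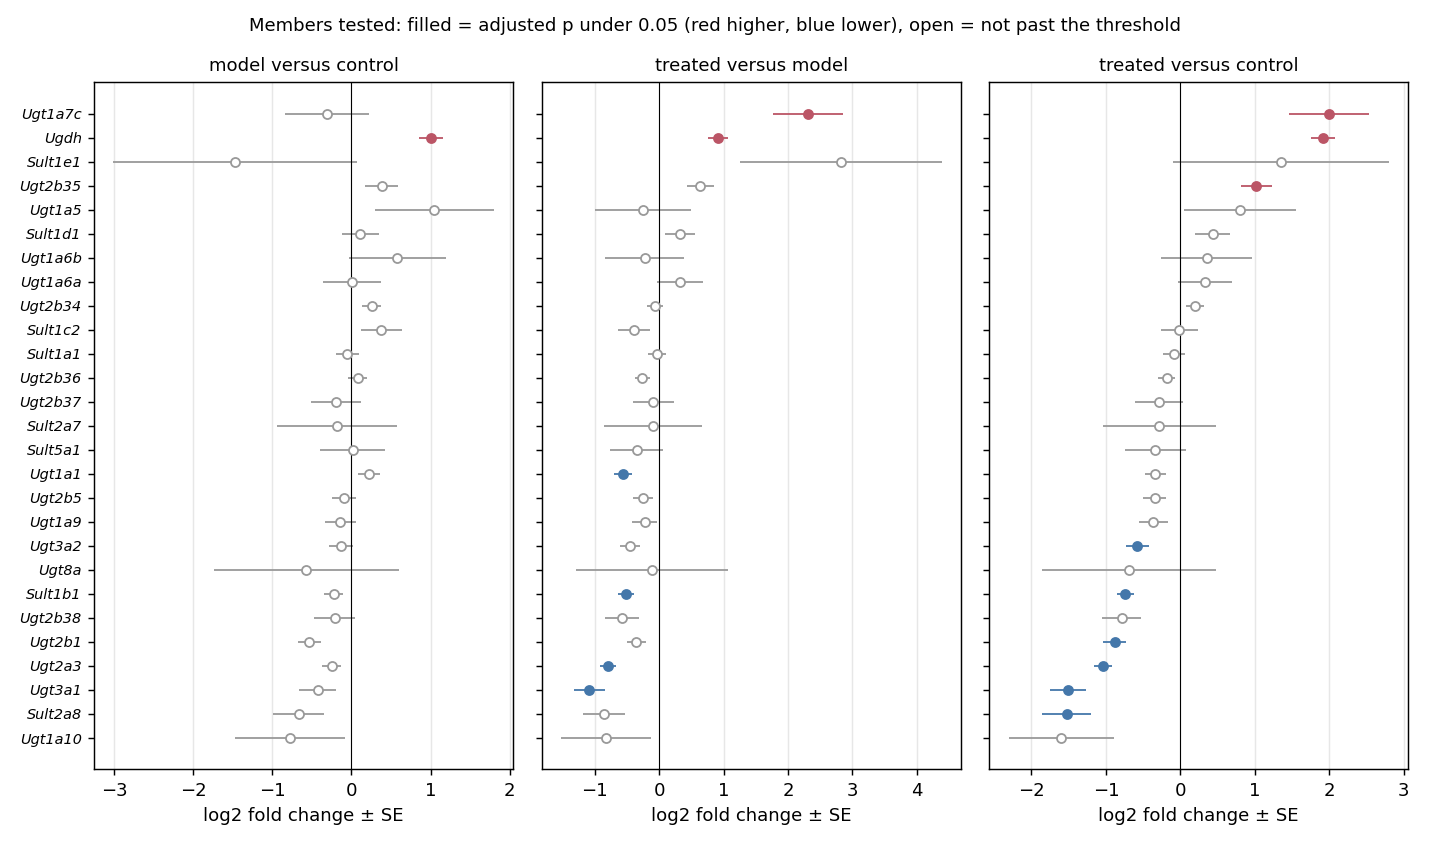
Log2 fold change with its standard error (x axis) of the 27 members tested (y axis), in model versus control, treated versus model and treated versus control, with filled points for an adjusted p under 0.05. Ugdh is the filled point of the first panel, and the treated versus control panel has 3 filled points above 0 and 6 below it.

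Per length, the transferases were unequal. In FPKM (fragments scaled by a length and by library size), the 4 highest Ugt genes by their mean over the 9 libraries were Ugt2b5 at 392, Ugt2b36 at 323, Ugt2b1 at 171 and Ugt1a9 at 148. The length used for each gene is not given, and ranks and shares per length depend on it. For Ugdh in control replicate 1 the gene read 13.3 FPKM, under the 27.8 FPKM of its coding transcript. Among sulfotransferases Sult1a1 at 147 and Sult2a8 at 122 FPKM stood over Sult1d1 at 40.3, and the next, Sult5a1, reached 7.73. The order of Sult1a1 and Sult2a8 holds for gene FPKM only. In control livers the main Sult2a8 transcript alone averaged 247 FPKM, against 178 FPKM for the gene. The main Sult1a1 transcript averaged 125 FPKM, against 143 FPKM for the gene. Ugt2b5 and Ugt2b36 kept close shares of the summed Ugt FPKM: 26.1, 25.1 and 25.1% for Ugt2b5 and 20.0, 21.5 and 21.3% for Ugt2b36 as means of control, model and treated libraries. Ugt2b1 went from 14.0% in control to 9.91% in model and 9.26% in treated libraries, and Ugt2b35 from 2.47 to 3.29 and 6.08%. The order of the Sult genes was not the same in the groups: Sult2a8 was first in control livers with 48.1% of the summed Sult FPKM, ahead of Sult1a1 with 38.4%, and Sult1a1 was first in treated livers with 53.6%, ahead of Sult2a8 with 23.3%. These shares are descriptions and were not tested. Overlap between groups is given below in CPM. TMM factors were 0.905 to 0.978 in control, 0.949 to 0.998 in model and 1.05 to 1.14 in treated libraries. In FPKM, which TMM does not scale, model libraries of Ugt2b1 overlapped both other groups, and those of Sult2a8 overlapped treated ones. Treated libraries of Ugt1a1, Ugt1a10, Ugt2b36 and Ugt3a2 overlapped control ones in FPKM.

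**Figure D2:**
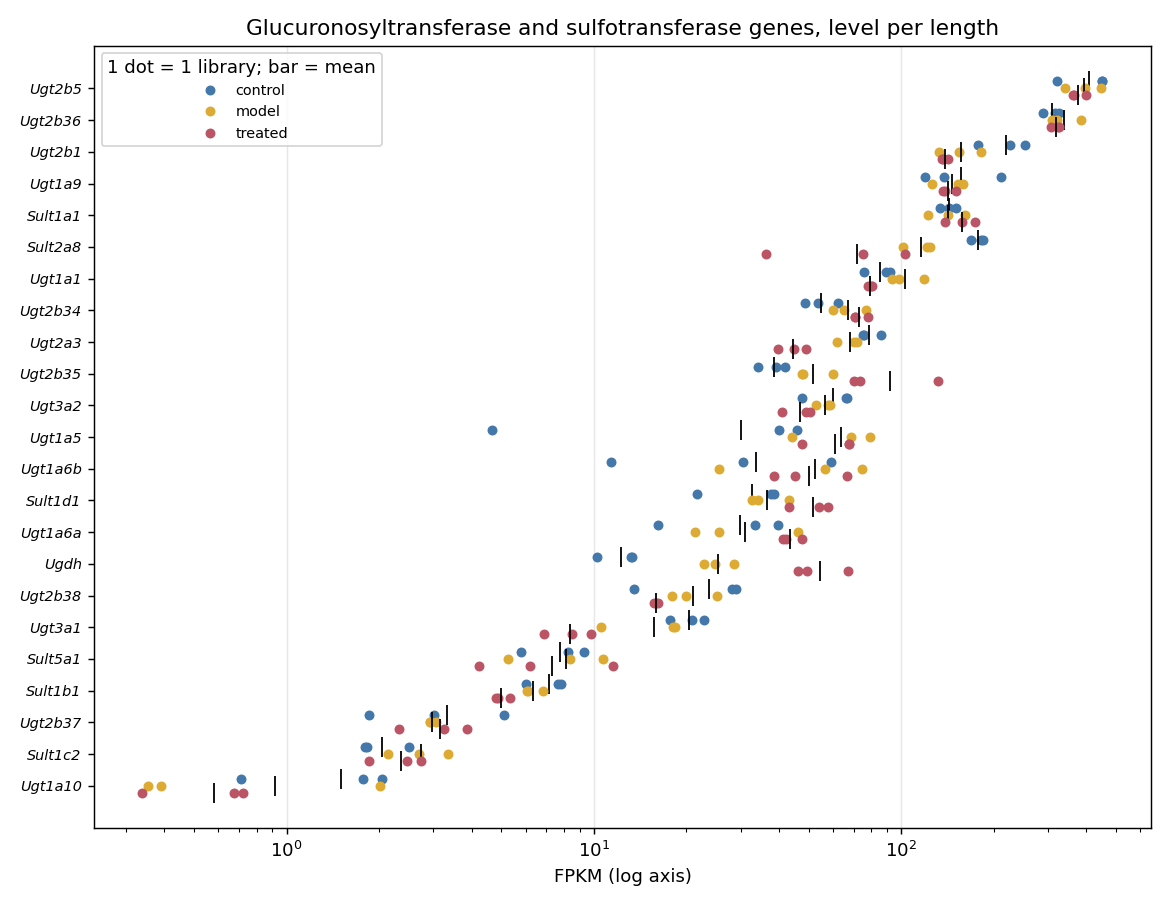
FPKM on a log axis (x) of 23 members (y), 1 point per library and a bar at each group mean. Drawn are members with a mean of at least 1 FPKM and a value over 0 in every library. Points of the 3 groups mix for Sult1a1 and lie apart for Ugdh, where treated libraries read 46.2 to 67.2 FPKM and control libraries 10.3 to 13.3.

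Ugdh, the source of UDP-glucuronic acid, was higher in each step from control to model to treated livers. It lies on chromosome 5, 65413221 to 65435949, minus strand (GRCm38). Its level was 104, 112 and 83.6 CPM in the control libraries, 204, 175 and 223 CPM in the model libraries and 452, 347 and 332 CPM in the treated libraries. No library of one group overlapped another group, and treated replicate 1 was the highest. Per length the group means were 12.3 ± 1.73, 25.4 ± 2.93 and 54.2 ± 11.4 FPKM (SD, n = 3 each). Model livers were 2.01-fold over control livers (log2 1.01, SE 0.16, edgeR adjusted p 0.0157), treated livers 1.88-fold over model livers (log2 0.91, SE 0.16, edgeR adjusted p 0.00531) and treated livers 3.77-fold over control livers (log2 1.91, SE 0.16, edgeR adjusted p 5.09e-05). The first of these calls was lost without control replicate 3 (edgeR adjusted p 0.0566) or without model replicate 3 (0.0657), with a range of 3.25e-07 to 0.0657 over 18 alternatives, and the other two calls held in all 18. Model replicate 1, the model library with muscle transcripts, read 204 CPM between 175 and 223 CPM in the model libraries without them.

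Most of the Ugdh count came from the protein-coding transcript ENSMUST00000031103. It read 27.8, 24.4 and 17.6 FPKM in control, 53.4, 42.4 and 63.5 FPKM in model and 115, 115 and 107 FPKM in treated libraries. These values lie over the gene FPKM above, for which the length used is not given. The retained-intron transcript ENSMUST00000125375 read 26.2 FPKM in treated replicate 1, against 6.28 and 6.31 FPKM in treated replicates 2 and 3 and 3.02 to 7.52 FPKM in the other libraries. So the excess of treated replicate 1 in the gene count was assigned to the retained-intron transcript, and the coding transcript was within 107 to 115 FPKM in the 3 treated libraries. This division is an estimate by the authors' quantifier, and no test was run on it. On coding transcripts alone the gene was called in each of the 3 comparisons.

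**Figure D3:**
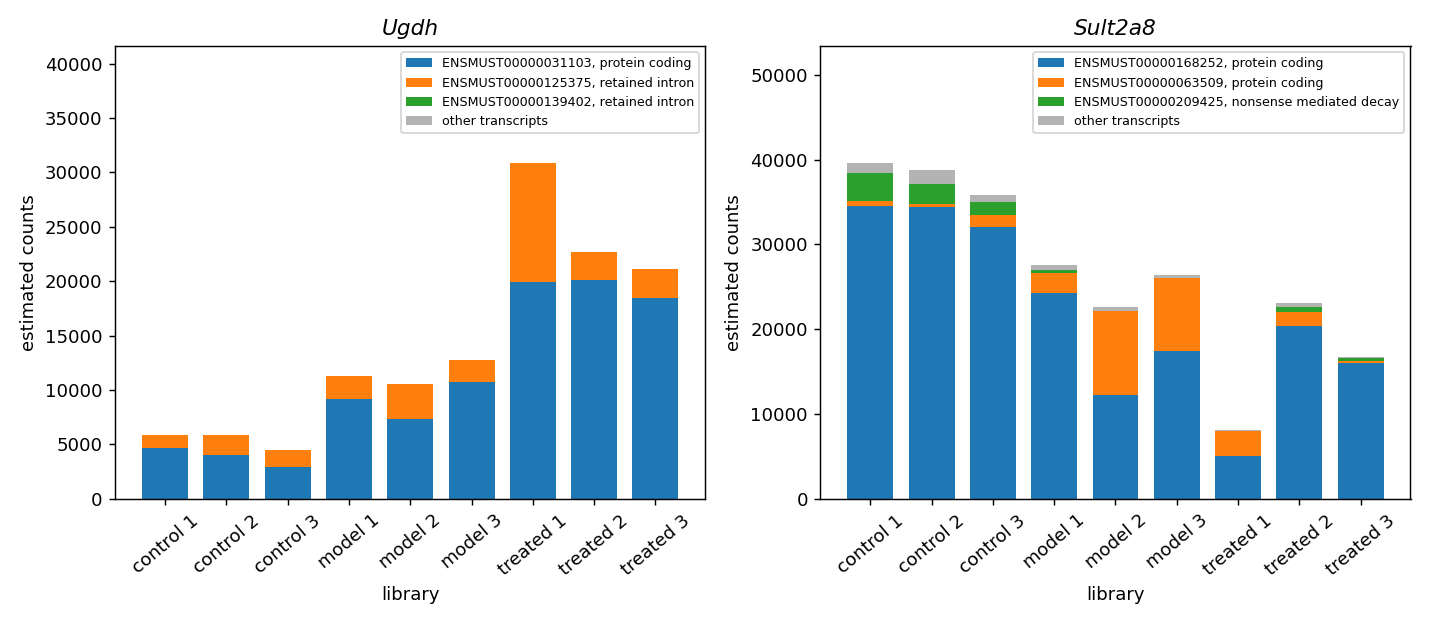
Estimated counts (y) assigned to the transcripts of Ugdh and Sult2a8 in the 9 libraries (x), stacked by transcript. The coding transcript of Ugdh rises from control over model to treated libraries, treated replicate 1 carries 10931 counts of the retained-intron transcript, and the second coding transcript of Sult2a8 is highest in model replicates 2 and 3.

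The stretch before the Ugdh start is shown because it was the single member window with TGACNNNGC, the core of the antioxidant response element that the oxidative stress factor NRF2 binds, and because it also held the aryl hydrocarbon receptor core GCGTG. Of 36 members 30 had a RefSeq promoter entry (GRCm38.p6), in 32 windows of 250 bases before the annotated start. Motifs were searched on both strands, were chosen after values had been seen, and a match describes letters only. TGACNNNGC was in 10.2% and GCGTG in 28.2% of all 32851 windows of this length, and GCGTG was in 6 of the 32 member windows. TTGCNNAAT, a C/EBP motif, was in 2.11% of all windows and in 1 of the 32, that of Ugt2b5. The printed part is chr5:65435950-65436092, minus strand, which ends where the first annotated exon begins, with TGACTTAGC and both copies of GCGTG (here as CACGC) in capitals:
Ugdh: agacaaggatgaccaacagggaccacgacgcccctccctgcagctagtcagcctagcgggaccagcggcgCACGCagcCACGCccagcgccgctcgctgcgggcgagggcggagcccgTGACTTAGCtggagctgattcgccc
A further match of each motif, overlapping each other, began 94 bases before the RefSeq start and lies within the annotated exon, so it is not printed.

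The Ugt1a subfamily holds 9 members, all on chromosome 1 between 88055388 and 88220002, plus strand. Their main transcripts share 4 exons of 1311 bases, which are 40.6 to 59.9% of the transcript, so mainly the first exons tell them apart, and the authors' counts for each are uncertain by how shared reads were divided. If each shared read was counted once, the sum over the 9 genes is free of that division, which was not tested. The sum was 986, 1020.3 and 940.2 CPM in control, 1131, 985 and 1233 CPM in model and 968, 987 and 964 CPM in treated libraries. Means were 982 ± 40.1, 1116 ± 124 and 973 ± 12.3 CPM (SD, n = 3), and groups overlapped. The ratio of the treated to the control mean was 0.990 in CPM and 1.13 in FPKM, which is not scaled by TMM, so the direction of this small difference depends on the scaling.

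**Figure D4:**
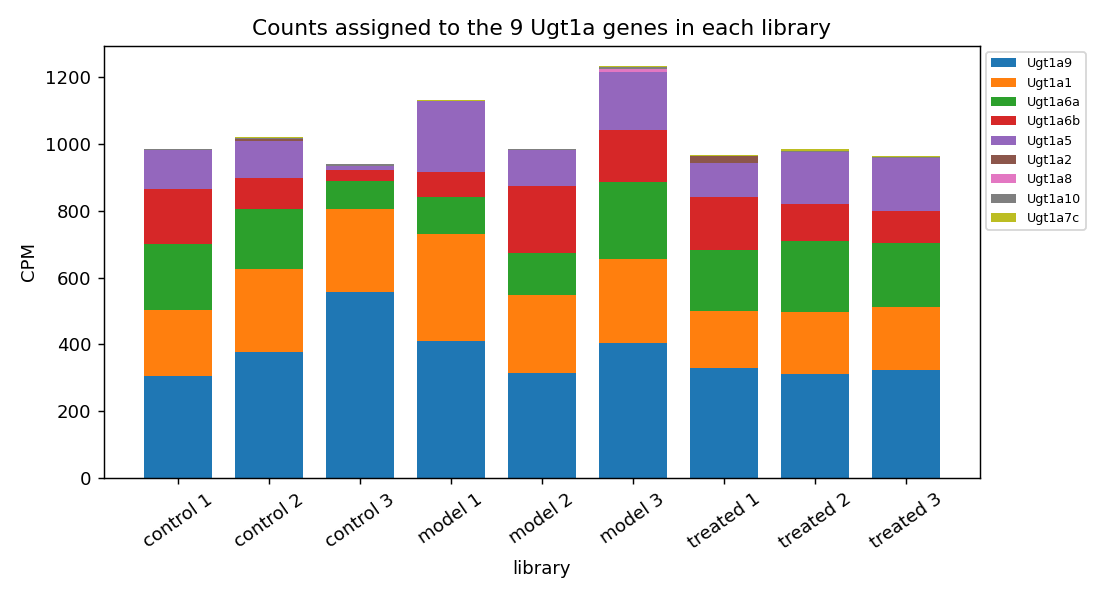
CPM (y) assigned to each of the 9 Ugt1a genes in every library (x), stacked to the subfamily total. The totals lie between 940.2 and 1233 CPM, while the split between Ugt1a9, Ugt1a6a, Ugt1a6b and Ugt1a5 differs between libraries of the same group.

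Ugt1a1, the enzyme that conjugates bilirubin, was lower in treated than in model livers. Its counts were 196, 248 and 247 CPM in control, 321, 235 and 253 CPM in model and 173, 184 and 189.8 CPM in treated libraries, so that all 3 treated libraries lay under the other 6. Treated livers were 1.48-fold under model livers (log2 -0.56, SE 0.14, edgeR adjusted p 0.0289), and in treated against control livers it did not pass (log2 -0.34, SE 0.14, edgeR adjusted p 0.121). The call against model livers was lost without model replicate 1 (0.110), model replicate 3 (0.0591) or treated replicate 1 (0.0950), 2 (0.0682) or 3 (0.0646), with adjusted p-values of 0.00262 to 0.1095 over all alternatives.

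Ugt1a9, which conjugates phenols and many drugs, had the highest level of the subfamily. It read 305, 378 and 557 CPM in control, 409, 313 and 404 CPM in model and 328, 311 and 323 CPM in treated libraries. The groups overlapped and it was called in no comparison (edgeR adjusted p 0.832, 0.543 and 0.231). Control replicate 3, the highest for Ugt1a9, was the lowest for Ugt1a5 at 12.4 CPM, against 104 to 212 CPM in the other 8 libraries. The same library was lowest for Ugt1a6a at 84.3 CPM (range of the rest 112 to 229) and for Ugt1a6b at 32.6 CPM (range of the rest 74.3 to 201). Ugt1a6a and Ugt1a6b, which conjugate small phenols, share 98.4% of their coding bases, and none of Ugt1a5, Ugt1a6a and Ugt1a6b was called. Across the 9 libraries the highest value was 17.1 times the lowest for Ugt1a5 but 1.31 times for the subfamily sum.

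Ugt1a7c, a low member, was higher in treated livers. It read 1.20, 0.961 and 1.29 CPM in control, 1.46, 0.549 and 0.770 CPM in model and 3.01, 8.61 and 2.16 CPM in treated libraries, the highest in treated replicate 2. Treated livers were 4.96-fold over model livers (log2 2.31, SE 0.54, edgeR adjusted p 0.0237) and 3.99-fold over control livers (log2 2.00, SE 0.53, edgeR adjusted p 0.0257). Each call was lost in 7 of 18 alternatives. Against model livers it was lost without model replicate 2 (edgeR adjusted p 0.0741), model replicate 3 (0.0924) or treated replicate 2 (0.0902), and against control livers without control replicate 1 (0.0700), 2 (0.0912) or 3 (0.0660) or treated replicate 2 (0.127), with ranges of 0.000472 to 0.198 and 0.00214 to 0.328 over all alternatives. The highest of these came from counts of coding transcripts alone.

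The remaining Ugt1a genes were near the limit of detection or uneven. Ugt1a10 read 0.777 to 5.60 CPM over the 9 libraries and was not called, although its treated libraries, at 0.777 to 1.75 CPM, all lay under the control libraries at 1.89 to 5.60 CPM (log2 -1.60, SE 0.71, edgeR adjusted p 0.156). Ugt1a2 had 1331 counts in treated replicate 1, 329 in control replicate 2, 9 in treated replicate 2 and 0 elsewhere. Ugt1a8 had 583 counts in model replicate 3, 5 in control replicate 1, 3 in treated replicate 2 and 0 elsewhere. A count of 0 allows up to 3 counts in a library, which is 0.0440 to 0.0577 CPM, by counting error alone. These single-library values have no support from the other libraries of their group.

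The 7 Ugt2b genes and Ugt2a3 lie on chromosome 5 between 86889767 and 87424203. Ugt2b enzymes conjugate steroids, bile acids and drugs. Of the 7 Ugt2b genes none was called in model against control or treated against model livers, beside 1.12 and 9.65% of all genes tested. In treated against control livers Ugt2b35 rose and Ugt2b1 fell, beside 9.36% higher and 8.47% lower of all genes tested. Their summed level was 2869 ± 396 CPM in control, 2738 ± 376 in model and 2447 ± 110.1 in treated libraries (SD, n = 3), with overlap.

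Ugt2b1 (86916638 to 86926530, minus strand) read 762, 725 and 553 CPM in control, 482, 388 and 542 CPM in model and 365, 365 and 375 CPM in treated libraries. The 3 groups did not overlap. Treated livers were 1.85-fold under control livers (log2 -0.88, SE 0.15, edgeR adjusted p 0.00274), a call kept in all 18 alternatives. Model livers against control livers gave a log2 of -0.53 (SE 0.15, edgeR adjusted p 0.129) and treated against model livers -0.35 (SE 0.15, edgeR adjusted p 0.178), neither past the threshold. By DESeq2's Wald test the former passed (adjusted p 0.0235, range of all alternatives 0.0235 to 0.349).

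Ugt2b35 (87000860 to 87013275, plus strand) went the other way. It read 153, 176 and 138 CPM in control, 194, 182 and 233 CPM in model and 441, 246 and 263 CPM in treated libraries, again with no overlap between groups and with treated replicate 1 highest. Treated livers were 2.03-fold over control livers (log2 1.02, SE 0.21, edgeR adjusted p 0.00826), kept in all 18 alternatives. Against model livers the log2 was 0.64 (SE 0.21, edgeR adjusted p 0.0871), which passed by DESeq2 alone (adjusted p 0.0206, range 0.0206 to 0.247). Its coding bases are 88.3% identical to those of Ugt2b36, which read 717 to 838 CPM in control, 721 to 916 in model and 663 to 698 CPM in treated libraries. The treated libraries of Ugt2b36 were the 3 lowest, but it was not called (treated against model log2 -0.26, SE 0.12, edgeR adjusted p 0.199).

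Ugt2b5, the gene with the highest level per length among the members, read 977, 1049 and 719 CPM in control, 899.7, 717 and 957 CPM in model and 737, 708 and 716 CPM in treated libraries. Control and model libraries overlapped the treated ones. It was not called (treated against control log2 -0.35, SE 0.16, edgeR adjusted p 0.154), except without control replicate 3 (0.0432, range of all alternatives 0.0432 to 0.411). Ugt2b38, 97.0% identical to Ugt2b5 in coding bases, read 30.8 to 66.7 CPM in control and 29.98 to 32.7 CPM in treated libraries (edgeR adjusted p 0.0714), so reads of the pair may have been divided between them. Ugt2b34 at 253 to 383 CPM and Ugt2b37 at 4.24 to 11.2 CPM were not called.

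Ugt2a3 (87324972 to 87337195, minus strand), the 1 Ugt2a gene with counts, fell in treated livers. It read 212, 199.99 and 191 CPM in control, 181, 149 and 176 CPM in model and 83.7, 98.8 and 111 CPM in treated libraries. The groups did not overlap, and the gap was wider between model and treated than between control and model. Treated livers were 1.73-fold under model livers (log2 -0.79, SE 0.12, edgeR adjusted p 0.00353) and 2.06-fold under control livers (log2 -1.04, SE 0.13, edgeR adjusted p 0.000378), and both calls held in all 18 alternatives. Model against control livers did not pass (log2 -0.25, SE 0.12, edgeR adjusted p 0.408).

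Ugt3a1 and Ugt3a2 lie side by side on chromosome 15, from 9276888 to 9370955, plus strand. Their human counterparts use other sugar donors than UDP-glucuronic acid, such as UDP-N-acetylglucosamine for UGT3A1. Both were lower in treated than in control livers. Ugt3a1 read 65.1, 75.9 and 57.0 CPM in control, 59.0, 32.0 and 56.6 CPM in model and 18.3, 27.2 and 24.2 CPM in treated libraries. Every treated library was under every other library, and model replicate 2 was the lowest of the rest. Treated livers were 2.84-fold under control livers (log2 -1.51, SE 0.24, edgeR adjusted p 0.00287, kept in all 18 alternatives) and 2.12-fold under model livers (log2 -1.08, SE 0.24, edgeR adjusted p 0.0229). The latter was lost without model replicate 1 (0.0787) or 3 (0.0768) or treated replicate 1 (0.0759) or 3 (0.0694), with adjusted p-values of 0.000140 to 0.0787 over all alternatives.

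Ugt3a2, 93.2% identical to Ugt3a1 in coding bases, read 241, 255 and 178 CPM in control, 218, 186 and 211 CPM in model and 126, 159 and 166 CPM in treated libraries. The treated libraries were again the 3 lowest. Treated livers were 1.49-fold under control livers (log2 -0.58, SE 0.15, edgeR adjusted p 0.0248), a call lost without control replicate 1 (0.0763) or 2 (0.0930) or treated replicate 1 (0.0903), with 0.00458 to 0.0930 over all alternatives. Ugt8a, which makes galactosylceramide of myelin, stayed at or below 0.414 CPM and was not called.

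Among the Sult1 genes, which act on phenols, catecholamines, thyroid hormone and estrogen, Sult1b1 fell in treated livers and the other 4 were not called. Sult1a1 (chromosome 7, 126672865 to 126676432), the main phenol sulfotransferase, read 236, 270.1 and 275 CPM in control, 296, 244 and 213 CPM in model and 209, 274 and 254 CPM in treated libraries. The groups overlapped in full (treated against control log2 -0.08, SE 0.14, edgeR adjusted p 0.751). It overlaps Sgf29 on the opposite strand, which had 7691 counts in all beside 133509 for Sult1a1, and the strand setting of the counting is not given in the sources used here.

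Sult1b1 (chromosome 5, 87513339 to 87538195), which sulfates thyroid hormone and phenols, read 25.4, 20.98 and 25.6 CPM in control, 20.5, 21.5 and 19.6 CPM in model and 13.5, 15.4 and 14.3 CPM in treated libraries. All treated libraries lay under the other 6. Treated livers were 1.67-fold under control livers (log2 -0.74, SE 0.12, edgeR adjusted p 0.00191, kept in all 18 alternatives) and 1.43-fold under model livers (log2 -0.51, SE 0.12, edgeR adjusted p 0.0222). The call against model livers was lost without model replicate 1 (0.0676) or 2 (0.0662) or treated replicate 1 (0.0797) or 3 (0.0631), with adjusted p-values of 0.00298 to 0.0797 over all alternatives.

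Sult1d1, whose enzyme takes catecholamines, read 62.2, 116 and 115 CPM in control, 98.2, 95.3 and 123 CPM in model and 106, 148 and 142 CPM in treated libraries. Control replicate 1 was the lowest, groups overlapped, and the gene was not called (treated against control log2 0.43, SE 0.23, edgeR adjusted p 0.241). Sult1c2 read 5.40, 4.17 and 4.09 CPM in control, 7.53, 5.68 and 4.57 CPM in model and 3.42, 5.27 and 4.86 CPM in treated libraries, with overlap and no call. Sult1e1, the estrogen sulfotransferase, had 0, 28 and 9 counts in control, 14, 0 and 0 in model and 45, 47 and 27 in treated libraries, at most 0.718 CPM, and was not called.

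Sult2a8, a hydroxysteroid and bile acid sulfotransferase of mouse liver (chromosome 7, 14410686 to 14446769, minus strand), fell in treated livers. It read 707, 745 and 669 CPM in control, 497, 376 and 462 CPM in model and 119, 352 and 264 CPM in treated libraries. No group overlapped another, and treated replicate 1 was lowest. Means were 707 ± 38.3, 445 ± 62.0 and 245 ± 118 CPM (SD, n = 3). Treated livers were 2.88-fold under control livers (log2 -1.53, SE 0.33, edgeR adjusted p 0.0150), a call lost without control replicate 2 (0.0510, range of all alternatives 2.25e-06 to 0.0510). Model against control livers gave log2 -0.67 (SE 0.33, edgeR adjusted p 0.419) and treated against model livers -0.86 (SE 0.33, edgeR adjusted p 0.149). The former passed in a fit of those 6 libraries alone (0.0467, range 0.0467 to 0.670), and the latter by DESeq2 (0.0209) and without treated replicate 2 (0.0470, range 0.0209 to 0.322).

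Over the same libraries 7 transcripts known to be higher in male than in female mouse liver, among them Cyp2d9, Elovl3 and Mup20, summed to 5826 to 6297 CPM in control, 3767 to 4957 CPM in model and 2181 to 3426 CPM in treated libraries. Of these 7, 4 were called lower in treated against control livers, where 8.47% of all genes tested were called lower, and none in the other 2 comparisons. Their part in the Sult2a8 result was not tested. Of 10 transcripts known to be higher in female liver, which summed to 13.7 to 99.4 CPM in control, 14.6 to 23.1 in model and 33.3 to 90.6 in treated libraries, 9 were tested. In treated against control livers 1 was called higher, where 9.36% of all genes tested were called higher. Sult2a1 and Sult2a2, the female-predominant members, had at most 5 and 7 counts in a library and were at 0 in all control and model libraries. Sult2a5 had at most 2 counts, and Sult2a7 read 0.227 to 1.62 CPM with no call.

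The Sult2a8 count came from transcripts with separate starts, whose shares differed between libraries. ENSMUST00000168252, which begins at 14438551, read 253, 252 and 237 FPKM in control, 171, 85.5 and 125 FPKM in model and 35.2, 142 and 113 FPKM in treated libraries. ENSMUST00000063509, which begins at the upstream start 14446586, read 3.90, 2.56 and 10.1 FPKM in control, 16.7, 68.4 and 61.01 FPKM in model and 20.8, 11.2 and 1.56 FPKM in treated libraries. This transcript was highest in model replicates 2 and 3, its model and control libraries did not overlap, and treated libraries spanned both. The other transcripts from near the upstream start went the other way between control and model libraries. ENSMUST00000209425, of the nonsense-mediated decay class, read 24.4, 17.7 and 11.1 FPKM in control, 2.30, 0 and 0 FPKM in model and 0, 4.63 and 2.23 FPKM in treated libraries. ENSMUST00000125941, a coding transcript, read 12.7, 21.1 and 9.81 FPKM in control, 6.76, 3.28 and 4.14 FPKM in model and 0.380, 5.52 and 1.72 FPKM in treated libraries. So the upstream start as a whole was not shown to differ between control and model livers. Transcript values are estimates by the authors' quantifier from shared reads, and no test was run on them.

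The stretches before both starts are shown because the transcripts differ there. TATAAA, the TATA box, is in 12.4% of all windows and lay in the windows of both Sult2a8 starts, 29 bases before the downstream start and, on the opposite strand, 223 bases before the upstream one. The upstream stretch is chr7:14446770-14446837, minus strand. It ends where ENSMUST00000125941 begins, at 14446769, and the bases from there to the upstream RefSeq start at 14446587 are not printed. The downstream stretch is chr7:14438562-14438801, minus strand, which ends where ENSMUST00000210366 begins. Matches are in capitals:
Sult2a8 upstream start: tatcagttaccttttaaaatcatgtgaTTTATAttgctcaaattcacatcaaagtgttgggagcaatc
Sult2a8 downstream start: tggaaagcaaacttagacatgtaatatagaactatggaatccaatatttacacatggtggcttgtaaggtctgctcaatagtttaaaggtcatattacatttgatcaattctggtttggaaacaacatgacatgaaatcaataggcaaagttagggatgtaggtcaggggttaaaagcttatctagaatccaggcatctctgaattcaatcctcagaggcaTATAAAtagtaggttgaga
The windows of Sult2a5, Sult6b2 and Ugt3a1 held the same letters.

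Of the remaining sulfotransferases Sult5a1 read 29.8, 51.5 and 43.8 CPM in control, 45.1, 26.3 and 54.9 CPM in model and 50.7, 28.6 and 20.0 CPM in treated libraries, with overlap and no call. Sult3a1 had at most 12 counts in a library, Sult6b1 at most 8, and Sult4a1, known from brain, and Sult6b2 at most 4 each. At this depth no difference in these 4 genes was detectable. Summed over the 15 Sult genes, the level was 1136 ± 71.2 CPM in control, 871 ± 98.8 in model and 676 ± 162 in treated libraries (SD, n = 3), and the 20 Ugt genes summed to 4343 ± 492, 4278 ± 542 and 3691 ± 68.7 CPM. Within the Sult sum, the Sult2a genes averaged 708, 446 and 246 CPM and the Sult1 genes 386, 383 and 397 CPM. The size of these differences depends on the scaling. The ratio of the treated to the control mean was 0.595 in CPM and 0.797 in FPKM for Sult, and 0.850 and 0.963 for Ugt.

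The rest of the pathway was read from 4 lists with 53 matched genes, all tested. In treated against control livers 19 of the 53 were called (9 higher and 10 lower), in treated against model livers 12 (7 higher and 5 lower) and in model against control livers 2 (Slco1a4 higher and Rora lower), where 17.8, 9.65 and 1.12% of all genes tested were called. Their median log2 fold changes were -0.03, -0.09 and 0.02, close to those of all genes tested.

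Of 16 genes of co-substrate supply, 3 rose in treated against control livers and none fell. Of all genes tested 9.36% were called higher there and 8.47% lower. Nadk, the kinase that makes NADP rather than UDP-glucuronic acid or PAPS, was 1.501-fold over control livers (edgeR adjusted p 0.00232). Slc35d1, a carrier of UDP-glucuronic acid into the endoplasmic reticulum, was 1.44-fold over control livers (edgeR adjusted p 0.0179) but not past the threshold without control replicate 2 (0.0718), control replicate 3 (0.0591) or treated replicate 1 (0.0686), with 0.00201 to 0.0718 over all alternatives. Ugp2, which makes the UDP-glucose that Ugdh uses, was not called at 230.3 to 339 CPM in 8 libraries and 163 CPM in treated replicate 3. Of the PAPS synthases, Papss2 was not called at 62.4 to 103 CPM, and Papss1 read 4.795 to 8.20 CPM in control and 8.98 to 11.6 CPM in treated libraries (log2 0.69, SE 0.22, edgeR adjusted p 0.0561).

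Of 6 genes of deconjugation 1 was called, in treated against control and in treated against model livers. Of all genes tested 17.8 and 9.65% were called there. Gusb, the lysosomal enzyme that removes glucuronic acid, read 22.6 to 25.9 CPM in control, 30.1 to 35.2 in model and 47.0 to 58.3 CPM in treated libraries, with no overlap. Treated livers were 2.14-fold over control livers (log2 1.10, SE 0.11, edgeR adjusted p 0.000147) and 1.58-fold over model livers (log2 0.66, SE 0.11, edgeR adjusted p 0.00510). The latter was lost on coding transcripts alone (0.194, range of all alternatives 2.23e-05 to 0.194). The sum of the 6 macrophage markers above was also highest in treated libraries. Of the 6, 3 were called higher in treated than in control livers, beside 9.36% of all genes tested. In model against control livers 3 of the 6 were called higher too, beside 0.519% of all genes, while Gusb was not called (edgeR adjusted p 0.0938). Other macrophage markers, such as Clec4f and Adgre1, overlapped between control and treated libraries. The part of macrophages in the Gusb result was not tested.

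Of 13 transporters of conjugates, 4 rose and 2 fell in treated against control livers, beside 9.36% higher and 8.47% lower of all genes tested. Abcc4, which exports conjugates across the sinusoidal membrane, read 1.39, 1.06 and 2.61 CPM in control, 2.34, 3.996 and 4.46 CPM in model and 61.2, 23.9 and 24.0 CPM in treated libraries. That was 21.5-fold over control livers (log2 4.43, SE 0.55, edgeR adjusted p 0.00151) and 10.1-fold over model livers (log2 3.34, SE 0.52, edgeR adjusted p 0.00798). Abcc5 was 2.73-fold over control livers (edgeR adjusted p 0.000168) and 2.57-fold over model livers (0.000544). Abcc1, at most 6.37 CPM, was 2.38-fold over control livers (edgeR adjusted p 0.0194, lost without control replicate 1 or 3 or treated replicate 3 at 0.0534, 0.0667 and 0.0796) and 2.19-fold over model livers (0.0457, lost without any 1 library but model replicate 1 at 0.0540 to 0.162, with 0.00824 to 0.162 over all alternatives). Slco1a4, an uptake carrier, was 3.57-fold over control in model livers (edgeR adjusted p 0.0446, range of all alternatives 2.05e-08 to 0.150) and 2.54-fold in treated livers (0.0239, range 2.61e-05 to 0.0722). The former was lost without control replicate 2 or 3, any 1 model library or treated replicate 3 (edgeR adjusted p 0.0746 to 0.150), and the latter without control replicate 3 (0.0722) or treated replicate 1 (0.0551) or 3 (0.0540). The uptake carriers Slco1b2 and Slco2b1 fell, by 2.01-fold (edgeR adjusted p 0.00188) and 2.11-fold (0.000448) under control livers, and Slco2b1 also by 1.75-fold under model livers (0.00423). Abcc2, the canalicular exporter of bilirubin conjugates, was not called at 339 to 472 CPM.

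Of 18 regulators of conjugation genes, 1 rose and 8 fell in treated against control livers, beside 9.36% higher and 8.47% lower of all genes tested. Ahr, the aryl hydrocarbon receptor, read 27.0 to 38.9 CPM in control, 20.1 to 21.7 in model and 47.7 to 52.6 CPM in treated libraries. It was 1.60-fold over control livers (log2 0.68, SE 0.14, edgeR adjusted p 0.00673) and 2.39-fold over model livers (log2 1.26, SE 0.14, edgeR adjusted p 0.000532). Nr1i3, the constitutive androstane receptor, read 794 to 1007 CPM in control, 516 to 707 in model and 369.9 to 513 CPM in treated libraries, 2.03-fold under control livers (log2 -1.02, SE 0.17, edgeR adjusted p 0.00200). Cebpa, a factor of hepatocyte identity, was 2.13-fold under control livers (edgeR adjusted p 0.000694) and 2.54-fold under model livers (0.000521). Nfe2l2, Keap1, Nr1i2 and Arnt, the genes of NRF2, its inhibitor, the pregnane X receptor and the partner of Ahr, were called in no comparison.

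Stat5b and Nr3c1, the glucocorticoid receptor gene, fell by 1.57-fold and 1.40-fold under control livers (edgeR adjusted p 0.00724 and 0.00974). Ppara, a receptor of fatty acids, was 1.93-fold under control livers (0.0278), a call lost without control replicate 2 (0.0647) or treated replicate 1 (0.102), 2 (0.0568) or 3 (0.0717), with 0.00163 to 0.102 over all alternatives.

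The calls of Rora, Nr1h4 and Hnf4a were also lost in some alternatives. Rora, a nuclear receptor, was 1.56-fold under control in model livers (edgeR adjusted p 0.0206), lost without control replicate 2 (0.0636) or model replicate 1 (0.0726) or 2 (0.0975), with 6.82e-05 to 0.0975 over all alternatives. In treated livers it was 1.28-fold under control (0.0409), lost without any 1 library but control replicate 1 and model replicate 3 (0.0531 to 0.151). Nr1h4, the bile acid receptor gene, was 1.49-fold lower in treated than in model livers (edgeR adjusted p 0.0167), lost without model replicate 2 (0.0571) or treated replicate 1 (0.0601) or 3 (0.0584). Hnf4a was 1.30-fold higher in treated than in model livers (edgeR adjusted p 0.0497), lost without any 1 of the 9 libraries (0.0566 to 0.148).

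**Figure D5:**
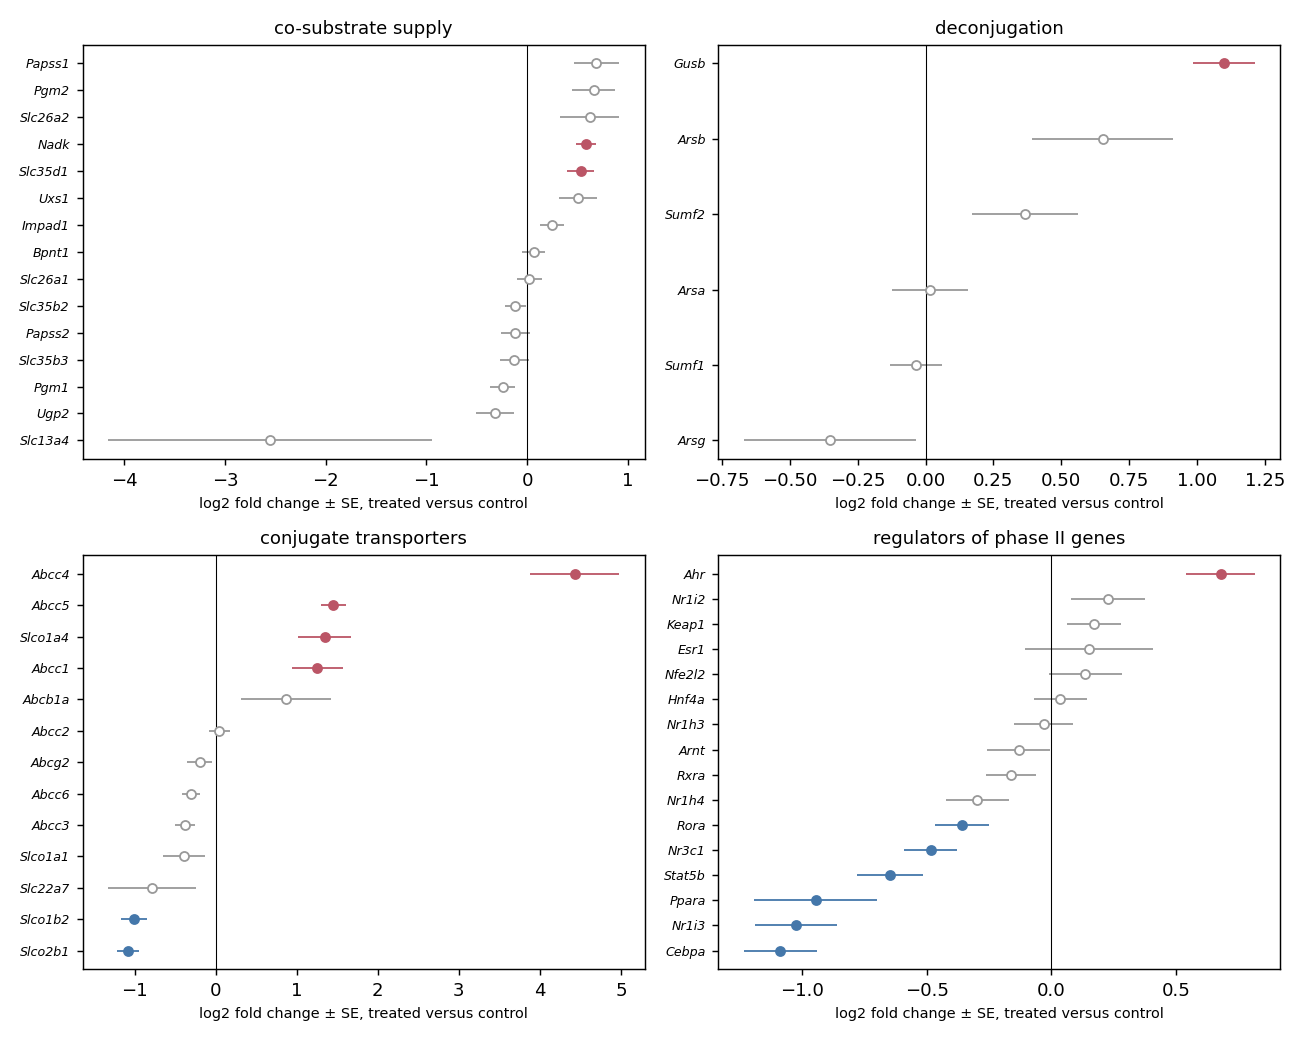
Log2 fold change with its standard error (x axis) in treated against control livers for 50 pathway genes (y axis) of 4 lists, with filled points for an adjusted p under 0.05. Abcc4 at 4.43 is the highest point of the transporters, and 6 of the 7 filled regulators lie below 0, Ahr being the exception.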

How the data were processed

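Polyadenylated RNA of 9 mouse liver libraries, 3 per group, was sequenced on an Illumina instrument after TRIzol extraction, per the labels' protocols. Reads were aligned with HISAT2, per the submitters' processing notes. The quantifier with its strand setting, the build and, likewise, the annotation were not given in the sources used here. All 36 member identifiers and coordinates match GENCODE M21 (GRCm38).

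Deposited values are estimated counts of genes and of transcripts, made by the authors as whole numbers, and FPKM values per gene and transcript, normalized by the authors for length and depth. Library totals of the estimated counts were 56440871 to 60665156, and FPKM values were used only for levels, with no test. A count of 0 allows 3 counts, for counting error only.

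Counts were fitted with edgeR 4.0.16 (R 4.3.3) by its quasi-likelihood F-test with robust dispersions, TMM factors, a filter on low counts (filterByExpr, minimum 10, total 15) and 1 model of the 3 groups, with Benjamini-Hochberg adjustment over 18113 genes and a threshold of 0.05. The script was tested on simulated data. Members and gene lists were chosen with earlier results of these data known, and the motifs and the alternative on coding transcripts were chosen after values had been seen. Values in full were given for members called in a comparison and for the highest member of each subfamily, others by range. Pathway genes named were Ugp2, Papss1, Papss2 and those called, except that 3 called genes, and 1 promoter motif, are not reported here. Ugt1a2, Ugt1a8, Ugt2b36, Ugt2b38, Sult1e1, Abcc2, Nfe2l2, Keap1, Nr1i2 and Arnt were singled out after their values were seen. Pathway entries numbered 55, of which Bpnt2 and Sts had no match. The 18 alternatives were DESeq2 1.42.0 size factors in edgeR, the DESeq2 Wald test, limma-voom (limma 3.58.1), no filter, a filter of 1 CPM in 3 libraries, the compared groups alone, dispersions without robust estimation, a replicate block, each of the 9 libraries left out, and coding transcripts alone. Promoter windows were those of RefSeq, GRCm38.p6, searched with Python 3.11.15, and in 27 of 32 the bases after the start lay in a transcript. 8 further family genes in the matrix had no count.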

Additional observations from a re-analysis of the deposited data

How the results depend on the processing

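Of 120 named results under 18 alternatives each (2160 values), 2024 kept their side of the threshold, 115 lost a call, 21 gained one, and 0 calls reversed. Changes of sign in results without a call were not counted. For the cause of each change below, the cause was not tested, beyond fewer samples where a library was left out and fewer reads on coding transcripts alone. In model against control livers 1 member became 2 by DESeq2 and 2 in the compared groups alone. With a library left out 0 to 1 was called there, 0 without control replicate 3 or model replicate 3. In each of these fits edgeR gave 3 members an unadjusted p under 0.05 there, beside 2171 of 18858 and 2203 of 18893 genes. All genes called there went from 202 to 866 by DESeq2, 120 with the replicate block and 102 on coding transcripts, and 54 to 213 with a library left out. Pathway genes called there went from 2 to 7 by DESeq2, to 1 with no filter, 1 with the block and 1 on coding transcripts, and 0 to 2 with a library left out. In treated against model livers 6 members became 2 with the replicate block (Ugdh and Ugt2a3), 9 by DESeq2 and 3 to 7 with a library left out, and all genes went from 1748 to 2752 by DESeq2, 1108 on coding transcripts and 882 to 1660 with a library left out. Pathway genes there went from 12 to 16 by DESeq2, 14 by limma-voom, 13 with the filter of 1 CPM and 8 to 11 with a library left out. In treated against control livers 9 members became 6 to 10, 3231 genes 2169 to 2996 and 19 pathway genes 14 to 19 with a library left out. The labels state no pairing by replicate number. Correlations of deviations ran from -0.114 to 0.113 in 9 same-numbered pairs and from -0.0931 to 0.0996 in 18 others. A library correlated best with its own number in 4 of 18 choices. These correlations span all genes tested, so they do not settle whether a block touched some genes. With the numbers as a block 1 member was called in model against control livers and 8 in treated against control livers, 7 of them shared with the 9: Ugt1a7c (0.0678) and Ugt3a2 (0.0562) were lost and Ugt1a10 was gained. The 7 Sult genes not tested had at most 12 counts in a library, and whether depth limited them was not tested. The counts of Ugt1a2 and Ugt1a8 sat almost all in 1 or 2 libraries.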
